A study of Mus musculus with 6 samples.

Results

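The genes described here encode the subunits, activators, inhibitor and assembly factors of the proteasome, measured in mouse gastrocnemius muscle. They were chosen by symbol, as every gene of the deposited count table named Psma, Psmb, Psmc, Psmd, Psme, Psmf or Psmg followed by digits alone. The table listed 48 such symbols, of which 47 had values and 46 had a mean count of at least 10 over the 6 libraries, among 17034 genes with values in all. Psma8, the testis form of an alpha subunit, had counts of 0 to 4 per library and was left out, and Psmb11, the thymic catalytic subunit, was listed without values. The 46 genes all passed the low-count filter of the test. Psmc3ip, Psme2b and Psme3ip1, whose symbols carry a further ending, were not counted among them. By mean count the nearest gene inside the limit of 10 was Psmg4, at 45.2 counts per library.

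Polyadenylated RNA came from the gastrocnemius of 8-week-old male mice, with 3 libraries per genotype. Mice labelled TRa_mKO carried Thra fl/fl, floxed alleles of the gene that encodes thyroid hormone receptor alpha, and in addition the Myf5-Cre transgene, which is expressed in early myogenic cells. Mice labelled WT were littermates that carried Thra fl/fl as well, without Cre recombinase, so both groups shared the floxed alleles. Tissue from cells without a history of Myf5 expression, such as endothelium, blood and nerve, is part of the same RNA. No drug or diet was given. The series design gives 3 mice per genotype, and the labels place all libraries in batch 1.

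The proteasome degrades proteins that have been marked with chains of ubiquitin. Its core particle, called 20S, is a barrel of alpha rings that form the gate and beta rings that hold the active sites. The regulatory particle, called 19S, sits on the end of the barrel, where a lid removes ubiquitin and a base with ATPase subunits unfolds the protein and feeds it in. Inducible catalytic subunits replace the standard ones in cells exposed to interferon and in many immune cells, forming the immunoproteasome. In skeletal muscle the ubiquitin and proteasome system breaks down contractile proteins, and its genes are known to rise together in several forms of muscle wasting.

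Library totals lay between 12390527 and 14488500 counts. The proteasome genes held 0.505% to 0.563% of the counts of a library. The skeletal muscle markers were abundant in all libraries, with 11 genes summing to 99890 to 134100 CPM in WT and 128400 to 146700 CPM in TRa_mKO (CPM is the count scaled by the normalised library size). Of these 11 markers, 10 had a log2 fold change above 0 (median 0.34), and 6 had all TRa_mKO libraries above all WT libraries. Of the 11, 1, Myh2 (with shared reads), passed the test (2 by limma-voom and 5 by DESeq2). Over all genes tested, 13.2% had all TRa_mKO libraries above all WT libraries. The share of all genes that passed was 4.17% (3.87% by limma-voom and 5.81% by DESeq2). For Thra the WT libraries gave 78.8, 92.8 and 96.9 CPM, and those labelled TRa_mKO gave 129, 118 and 101 CPM (adjusted p = 0.117, edgeR). This count covers the whole gene, so it checks neither the deletion nor the labels. Values per library are given in the order of the replicate numbers. Haemoglobin transcripts were highest in WT replicate 1 and TRa_mKO replicate 3, and results without those libraries are given in the closing section.

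The comparison asks whether proteasome genes differed in RNA level between muscle labelled TRa_mKO and WT muscle. None of the 46 genes passed the test, neither upward nor downward (edgeR quasi-likelihood test, Benjamini-Hochberg adjusted p of 0.123 to 0.995). Across the 13118 genes tested, 4.17% passed, 2.52% higher and 1.65% lower. DESeq2 and limma-voom also called 0 of the 46, against 5.81% and 3.87% of all genes. At an unadjusted p under 0.05 there were 3 proteasome genes (6.52%), namely Psmg2, Psmb8 and Psme4, against 17.9% of all genes. The WT and TRa_mKO libraries did not overlap for 2 of the 46 (4.35%), with Psmg2 higher and Psmb8 lower in TRa_mKO, while 23.2% of all genes had groups that did not overlap (13.2% higher, 10.1% lower). The median log2 fold change, TRa_mKO over WT, was 0.02 for the proteasome genes and 0.00 for all genes, and the median size of the change regardless of sign was 0.06 against 0.14. Summed over the 46 genes, the level was 5368.5 ± 388.6 CPM in WT and 5372.3 ± 247.7 CPM in TRa_mKO (mean ± SD, n = 3 each).

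The intervals say how large a difference these libraries could still hide. For 41 of the 46 genes the 95% confidence interval of the fold change, not adjusted for the number of genes, lay wholly within 1.5-fold in either direction, as it did for 66.1% of all genes tested. The 5 whose interval reached beyond 1.5-fold were Psmb8, Psmb9, Psmd8, Psme4 and Psmg4. Standard errors of the log2 fold change ran from 0.08 for Psmd13 to 0.26 for Psmg4, the gene with the fewest counts (31 to 53 per library). Over all genes tested they ran from 0.07 to 2.13. The comparisons with all genes, in the size of change and in the intervals, are thus not matched for precision.

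**Figure D1:**
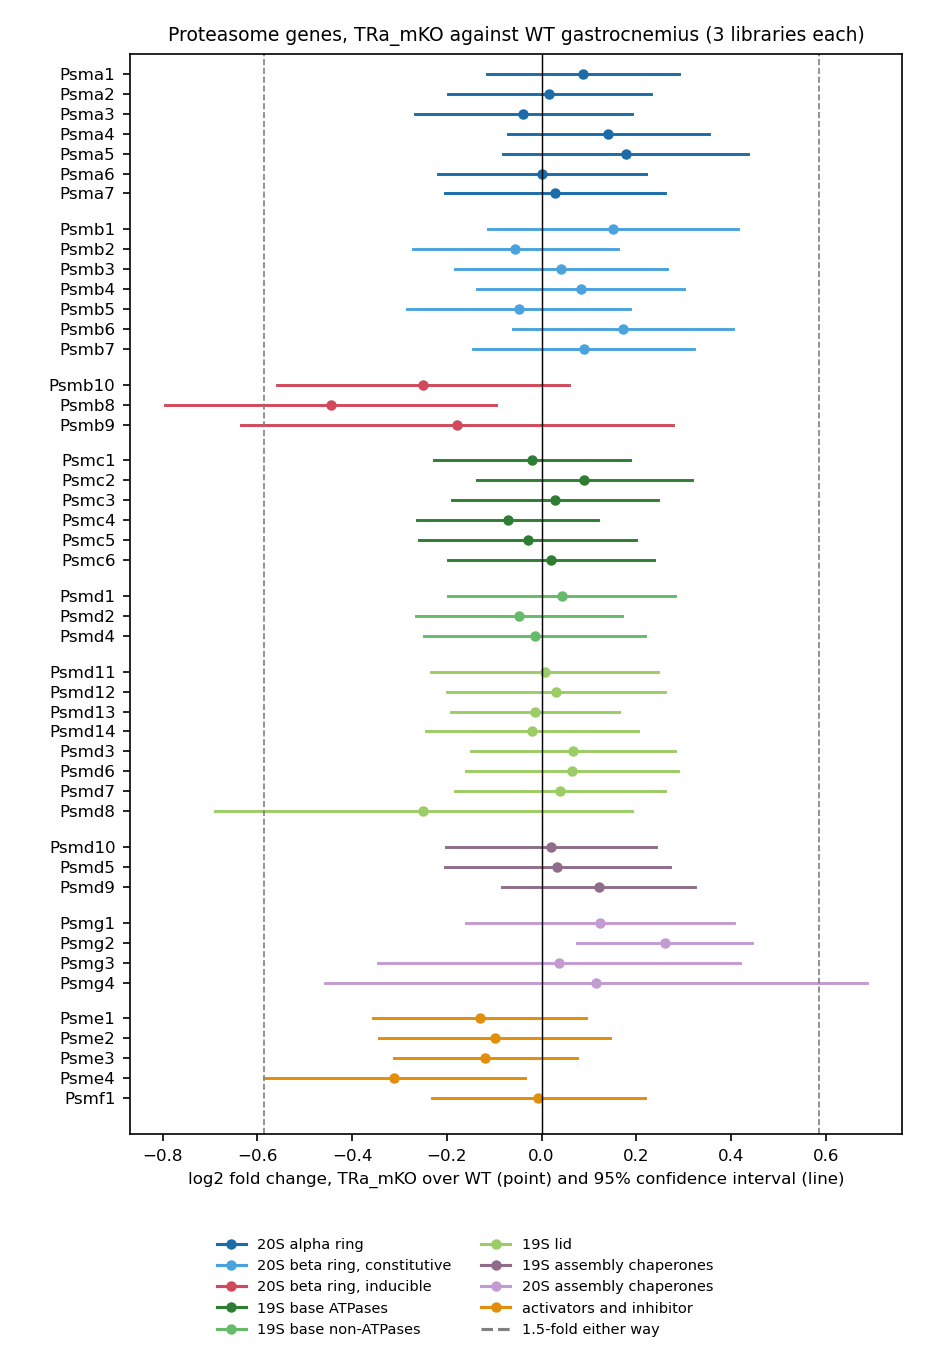
Log2 fold change of each of the 46 proteasome genes (horizontal axis, TRa_mKO over WT, 3 libraries each), with the 95% confidence interval as a line and genes grouped by subcomplex in colour. Dashed lines mark 1.5-fold in either direction, and the intervals of 41 genes lie between them.

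The alpha ring was nearly level. Of its 7 measured genes, Psma1 to Psma7, 0 passed, 6 had a log2 fold change above 0, and the median was 0.03. The extremes were Psma3 at -0.04 and Psma5 at 0.18. Psma5 stood at 84.5, 105 and 96.7 CPM over the WT replicates and at 99.0, 123 and 102 CPM over the TRa_mKO replicates, and the groups overlapped (SE 0.12, adjusted p = 0.467). Per length of transcript, Psma6 was the most abundant of the ring in WT (174 CPM per kb) and Psma2 the least (38.5 CPM per kb). The span was 4.52-fold, for products that enter the ring in equal numbers. It rests in part on annotated length, 2911 bases for Psma2 and 1042 for Psma6. In CPM, Psma2 (112 in WT) lay above Psma5 (95.5), the lowest, and Psma3 (222) was the highest.

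The standard beta ring has 7 genes, Psmb1 to Psmb7, and 0 of them passed. The median log2 fold change was 0.08, with 5 above 0, and the values ran from -0.06 for Psmb2 to 0.17 for Psmb6. The active sites lie in the products of Psmb6 (beta1, which cuts after acidic residues), Psmb7 (beta2, after basic residues) and Psmb5 (beta5, after hydrophobic residues). Psmb6 (gene ID 19175) stood at 141, 166 and 133 CPM over the WT replicates and at 160, 172 and 164 CPM over the TRa_mKO replicates. The TRa_mKO libraries were thus more alike than the WT libraries and lay within or just above their range (147 ± 17.2 against 165 ± 6.27 CPM, adjusted p = 0.429). Psmb7 (gene ID 19177), the most abundant of the ring per length, stood at 241, 278 and 234 CPM over the WT replicates and at 270, 280 and 250 CPM over the TRa_mKO replicates (adjusted p = 0.722). Psmb5 (gene ID 19173) stood at 142, 160 and 129 CPM over the WT replicates and at 130, 150 and 137 CPM over the TRa_mKO replicates, with a log2 fold change of -0.05 (95% interval -0.28 to 0.19, adjusted p = 0.872). All 3 pairs of groups overlapped. Per length, Psmb1 was the least abundant of the ring, at 72.9 CPM per kb in WT. In CPM the lowest in WT was Psmb2 (80.7, against 128 for Psmb1).

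Each standard catalytic subunit has an inducible counterpart, Psmb9 for Psmb6, Psmb10 for Psmb7 and Psmb8 for Psmb5. Of the subcomplexes these 3 genes had the lowest median log2 fold change, -0.25, with 3 of 3 below 0, and 0 passed. Psmb8 (gene ID 16913) stood at 16.5, 16.6 and 15.0 CPM over the WT replicates and at 8.86, 12.7 and 13.8 CPM over the TRa_mKO replicates. The groups did not overlap, and the TRa_mKO libraries were the more scattered. Its log2 fold change of -0.44 (SE 0.16, 95% interval -0.79 to -0.10) was the lowest of the 46 and did not pass (adjusted p = 0.164). Without TRa_mKO replicate 1, the lowest library, the value was -0.28 (adjusted p = 0.251), and over the 16 alternatives the adjusted p lay between 0.102 and 0.311.

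Psmb10 (gene ID 19171) stood at 17.2, 18.1 and 14.7 CPM over the WT replicates and at 11.6, 14.5 and 15.8 CPM over the TRa_mKO replicates, and the groups overlapped (log2 fold change -0.25, adjusted p = 0.383; -0.13 without TRa_mKO replicate 1). Psmb9 (gene ID 16912) was the scarcest subunit of the barrel, at 65 to 93 counts per library. It stood at 6.06, 7.2 and 4.29 CPM over the WT replicates and at 4.76, 5.65 and 5.05 CPM over the TRa_mKO replicates (log2 fold change -0.18, SE 0.20, adjusted p = 0.716). The spread of Psmb9 within WT was wider than the gap between the genotypes.

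**Figure D2:**
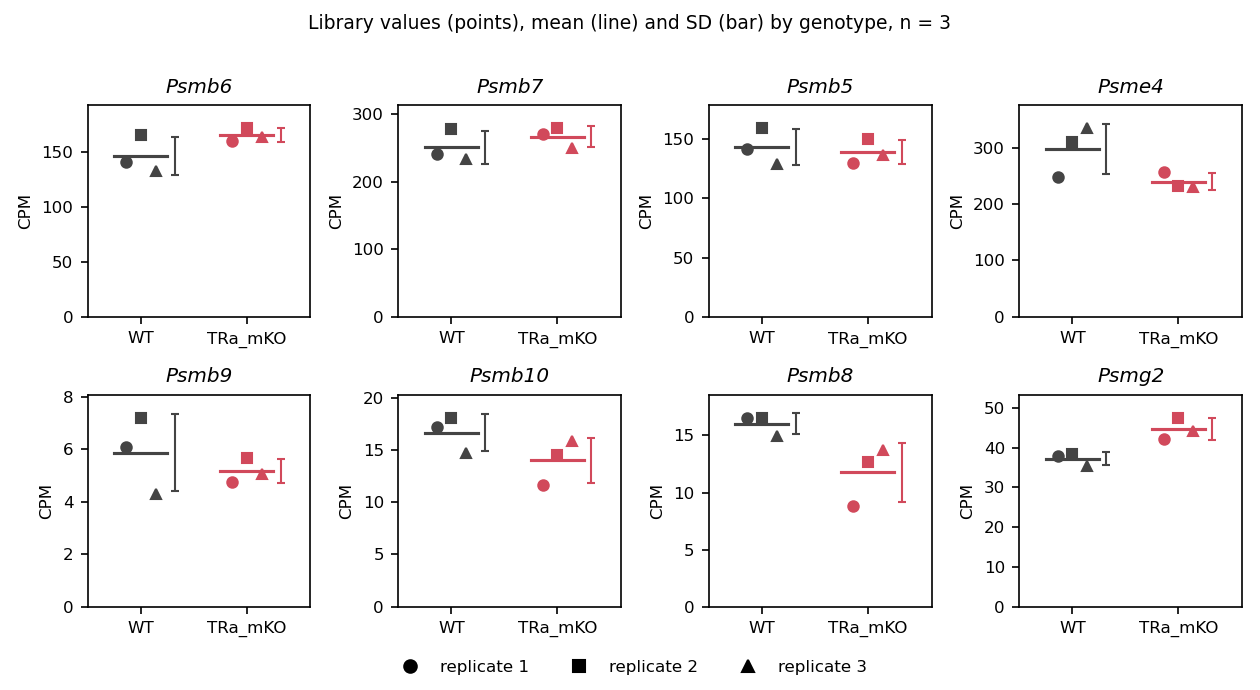
CPM of the standard catalytic genes (Psmb6, Psmb7, Psmb5), their inducible counterparts below them (Psmb9, Psmb10, Psmb8), and Psme4 and Psmg2, in each library (vertical axis, from 0), with the mean as a line and the SD as a bar (n = 3 per genotype). Groups are apart for Psmb8 and Psmg2 and overlap for the other genes shown.

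Levels per length set the inducible genes against their counterparts. In WT, Psmb8 made up 5.83% ± 0.35 of the summed CPM per kb of Psmb8 and Psmb5 (mean ± SD, n = 3), and in TRa_mKO 4.45% ± 0.83. The WT libraries ran from 5.42% to 6.04% and the TRa_mKO libraries from 3.62% to 5.27%. For Psmb10 with Psmb7 the share was 5.56% ± 0.35 in WT and 4.46% ± 0.82 in TRa_mKO, with ranges of 5.28% to 5.95% and 3.67% to 5.31% that overlapped. For Psmb9 with Psmb6 it was 2.28% ± 0.36 and 1.81% ± 0.09, again with overlap. In whole muscle, fewer cells of a type and less RNA per cell cannot be told apart.

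The promoters of the beta5 and beta1 pairs are shown because they are the DNA next to genes of one active site whose RNA levels lay far apart. The beta2 pair, Psmb7 and Psmb10, lay far apart as well (216 and 12.7 CPM per kb in WT) and is not shown. The sequences are RefSeq's (build GRCm38.p6), from 250 bases before to 50 bases after the annotated start, written 5′ to 3′ on the strand of the gene. Capitals mark matches to the antioxidant response element core TGACNNNGC, the site of NRF1 and NRF2, and to the gamma-activated site TTCNNNGAA. The core of the interferon-stimulated response element, a pair of GAAA separated by NN, was searched as well and is not in these 4 windows. The windows are chr14:54617946-54618245 (minus strand) for Psmb5, chr17:34197945-34198244 (plus) for Psmb8, chr11:70525107-70525406 (plus) for Psmb6 and chr17:34187281-34187580 (minus) for Psmb9.
Psmb5: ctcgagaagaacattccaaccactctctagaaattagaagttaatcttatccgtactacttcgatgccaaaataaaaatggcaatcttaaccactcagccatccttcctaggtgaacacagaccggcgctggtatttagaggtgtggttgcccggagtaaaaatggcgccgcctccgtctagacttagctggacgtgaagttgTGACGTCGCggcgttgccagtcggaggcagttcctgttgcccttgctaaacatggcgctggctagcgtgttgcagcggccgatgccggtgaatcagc
Psmb8: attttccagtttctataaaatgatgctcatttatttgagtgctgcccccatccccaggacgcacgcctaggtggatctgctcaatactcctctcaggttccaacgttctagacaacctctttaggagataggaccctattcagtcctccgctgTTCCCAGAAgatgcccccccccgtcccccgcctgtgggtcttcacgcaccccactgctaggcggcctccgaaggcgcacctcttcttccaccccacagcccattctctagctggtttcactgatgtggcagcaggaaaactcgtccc
Psmb6: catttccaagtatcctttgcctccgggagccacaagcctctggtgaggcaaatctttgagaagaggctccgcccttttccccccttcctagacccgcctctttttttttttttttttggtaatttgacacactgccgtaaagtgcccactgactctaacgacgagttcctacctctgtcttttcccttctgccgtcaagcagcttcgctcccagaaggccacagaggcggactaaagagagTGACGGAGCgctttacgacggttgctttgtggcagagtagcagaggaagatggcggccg
Psmb9: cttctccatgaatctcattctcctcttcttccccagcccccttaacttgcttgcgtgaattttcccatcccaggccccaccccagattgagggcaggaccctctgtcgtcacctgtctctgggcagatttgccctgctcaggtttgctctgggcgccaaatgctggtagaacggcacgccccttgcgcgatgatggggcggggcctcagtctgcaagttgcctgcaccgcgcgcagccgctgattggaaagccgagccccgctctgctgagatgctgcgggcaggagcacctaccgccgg

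In these windows, Psmb5 and Psmb6 each held 1 match to TGACNNNGC, whose first base lay 47 and 9 bases before the start. Psmb8 held 1 match to TTCNNNGAA, whose first base lay 97 bases before the start. Psmb9 held none of the 3 and has CCAAT once, in either orientation. The table of promoters held 39 of the 46 genes, each searched on both strands. TGACNNNGC was found for 6 of the 39 (15.4%, against 14% of all 27025 genes in the table), namely Psmb5, Psmb6, Psmc6, Psmd9, Psmd12 and Psme4. TTCNNNGAA was found for 3 (7.69%, against 9.55%) and CCAAT for 13 (33.3%, against 41.1%). The pair of GAAA was found for 5 (12.8%, against 3.99%), namely Psmb3, Psmd4, Psmd9, Psme1 and Psmg4, and not for Psmb8, Psmb9 or Psmb10. The single thyroid receptor site AGGTCA was found for 9 (23.1%, against 18.1%), and its direct repeat, a pair of AGGTCA separated by NNNN, for 0 (against 0.0148%). A match is a description of the letters and no measure of binding, and AGGTCA is contained in its own repeat.

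Psmb9 lies head to head with Tap1, which encodes a subunit of the peptide transporter of antigen presentation. Their promoter windows share 275 of 300 bases, and their annotated exons overlap on opposite strands. Tap1 stood at 13.2, 15.8 and 7.86 CPM over the WT replicates and at 6.08, 7.18 and 11.7 CPM over the TRa_mKO replicates (log2 fold change -0.55, SE 0.32, adjusted p = 0.418). No source used here gives the strand setting of the counting, and reads of the overlapping exons cannot be told apart. In the GENCODE annotation 9 of the 46 genes have exons overlapped on the opposite strand, Psmb8, Psmb7 and Psme1 among them, and 2 (Psmd1 and Psmg3) on the same strand.

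The base of the regulatory particle was flat. Its 6 ATPase genes, Psmc1 to Psmc6, had log2 fold changes of -0.07 (Psmc4) to 0.09 (Psmc2), a median of 0.00 and 0 calls. Psmc2, with the smallest p of the ring, stood at 162, 187 and 180 CPM over the WT replicates and at 180, 206 and 178 CPM over the TRa_mKO replicates, and the groups overlapped (adjusted p = 0.709). Per length the ATPase genes were the most even set of the barrel and its cap, with 135 CPM per kb for Psmc3, 72.1 for Psmc4 and a 1.88-fold span in WT.

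The other base genes are Psmd1, Psmd2 and Psmd4. The first pair encodes the large scaffold subunits, and the product of Psmd4 binds ubiquitin chains. Psmd2 stood at 240, 252 and 271 CPM over the WT replicates and at 242, 262 and 234 CPM over the TRa_mKO replicates (log2 fold change -0.05, adjusted p = 0.865). Psmd4 stood at 150, 180 and 150 CPM over the WT replicates and at 151, 170 and 155 CPM over the TRa_mKO replicates (log2 fold change -0.01, 95% interval -0.25 to 0.22, adjusted p = 0.966). Psmd4 was highest in replicate 2 of each genotype, and the groups of both genes overlapped. Per length, Psmd4 was the highest of this set (120 CPM per kb in WT) and Psmd1 the lowest (50.3 CPM per kb), and Psmd1 had a log2 fold change of 0.04.

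Among the 46 genes the lid has 8, and 0 passed, with a median log2 fold change of 0.02. Psmd14, which encodes the deubiquitinase that cuts ubiquitin chains from the substrate, stood at 81.5, 99.3 and 90.9 CPM over the WT replicates and at 93.5, 92.8 and 81.7 CPM over the TRa_mKO replicates (log2 fold change -0.02, 95% interval -0.24 to 0.20, adjusted p = 0.951). Psmd13 was the steadiest gene of the lid, with a highest over lowest library ratio of 1.08. Per length the lid ran from 35.1 CPM per kb for Psmd11 to 158 for Psmd8 in WT, and in TRa_mKO Psmd6 was the highest. With the longest transcript of each gene as its length, Psmd6 was the highest in WT too.

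Psmd8 (gene ID 57296), a lid subunit, departed from its partners. It stood at 196, 288 and 246 CPM over the WT replicates and at 257, 200 and 158 CPM over the TRa_mKO replicates. Both genotypes held high and low libraries, the highest over lowest ratio was 1.83, and the groups overlapped. For the other 30 standard barrel and cap genes among the 46, that ratio stayed under 1.5, with a highest value of 1.46 for Psma5. The log2 fold change of Psmd8 was -0.25 (SE 0.19, adjusted p = 0.557), and it moved to -0.09 without TRa_mKO replicate 3, to -0.11 without WT replicate 2 and to -0.44 without TRa_mKO replicate 1. Its counts were whole numbers of 2281 to 3734, so counting error is small beside this spread.

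The standard genes of the barrel and its cap, 31 of the 46, followed a common pattern over the libraries within each genotype. Of the 31, 27 were highest in replicate 2 among the WT libraries and 25 were highest in replicate 2 among the TRa_mKO libraries. Over the 6 libraries, 28 were highest in one of those 2. The median departure from a gene's own mean, on the log2 scale, was -0.10, 0.10 and -0.05 in the WT libraries and -0.02, 0.10 and -0.04 in the TRa_mKO libraries. The libraries thus differed more within a genotype than the genotypes differed, at 4726 ± 354 CPM summed over the 31 genes in WT and 4796 ± 247 CPM in TRa_mKO (mean ± SD, n = 3). These genes share each library's scaling, so the pattern is not independent evidence for each gene. The libraries numbered 2 come from mice that the labels do not pair.

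**Figure D3:**
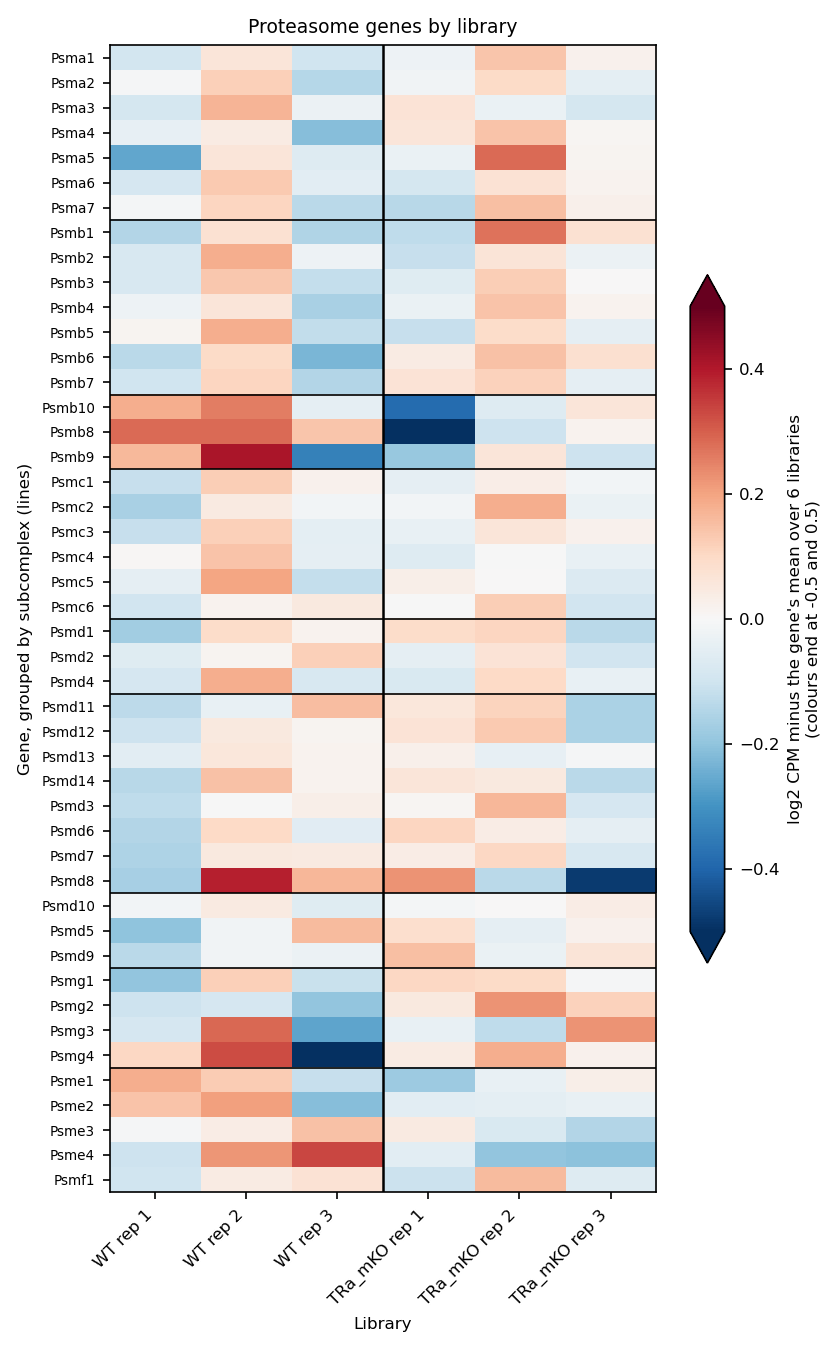
Departure of each of the 46 genes (rows, grouped by subcomplex) from its own mean log2 CPM in each library (columns), in red above and blue below, with colours ending at 0.5 either way. Most standard barrel and cap genes are red in both replicates 2, while Psmb8 and Psmd8 are blue in TRa_mKO replicate 2.

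Assembly of the barrel and of its cap depends on chaperones that leave before or when the particle is complete. All 7 of these genes had log2 fold changes above 0, as 6554 of all 13118 genes did, with a median of 0.12, and 0 passed. Psmg1, Psmg2 and Psmd9 kept that sign in every alternative, while Psmg3, Psmg4, Psmd5 and Psmd10 did not. With library size only, the median of Psmd5, Psmd9 and Psmd10 was -0.02, and that of all genes was -0.05. Psmg1 to Psmg4 encode the chaperones of the alpha ring. Psmg2 (gene ID 107047) stood at 37.9, 38.4 and 35.5 CPM over the WT replicates and at 42.1, 47.6 and 44.1 CPM over the TRa_mKO replicates. All TRa_mKO libraries lay above all WT libraries. The means were 37.3 ± 1.54 and 44.6 ± 2.78 CPM, and the log2 fold change of 0.26 (SE 0.08, 95% interval 0.08 to 0.44) was the highest of the 46 and had their smallest adjusted p (0.123). Over the alternatives that adjusted p ranged from 0.105 to 0.415, the latter without TRa_mKO replicate 2.

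Psmg1, whose product pairs with that of Psmg2, stood at 9.28, 11.5 and 9.84 CPM over the WT replicates and at 11.4, 11.4 and 10.6 CPM over the TRa_mKO replicates (log2 fold change 0.12, adjusted p = 0.675). Psmg3 stood at 8.16, 10.5 and 7.2 CPM over the WT replicates and at 8.42, 7.91 and 10.1 CPM over the TRa_mKO replicates (log2 fold change 0.04, adjusted p = 0.945). Psmg4 stood at 3.52, 4.11 and 2.05 CPM over the WT replicates and at 3.37, 3.71 and 3.32 CPM over the TRa_mKO replicates (log2 fold change 0.12, 95% interval -0.46 to 0.69, adjusted p = 0.874). The groups of these 3 genes overlapped. Per length, Psmg2 stood above the other 3 in WT, at 35.2 CPM per kb against 5.81 to 9.79.

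Psmd5, Psmd9 and Psmd10 carry subunit names but encode chaperones of the base. Psmd9 stood at 22.1, 23.9 and 23.8 CPM over the WT replicates and at 26.9, 23.6 and 25.3 CPM over the TRa_mKO replicates (log2 fold change 0.12, adjusted p = 0.542). Psmd5 and Psmd10 had log2 fold changes of 0.03 and 0.02 (adjusted p = 0.919 and 0.950). Psmd10 was the least variable of the 46, at 13.9 to 14.9 CPM over the 6 libraries. The chaperones of the base lay at 5.88 to 10.1 CPM per kb in WT, while the medians of the barrel and cap sets lay at 71.2 to 160 CPM per kb.

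**Figure D4:**
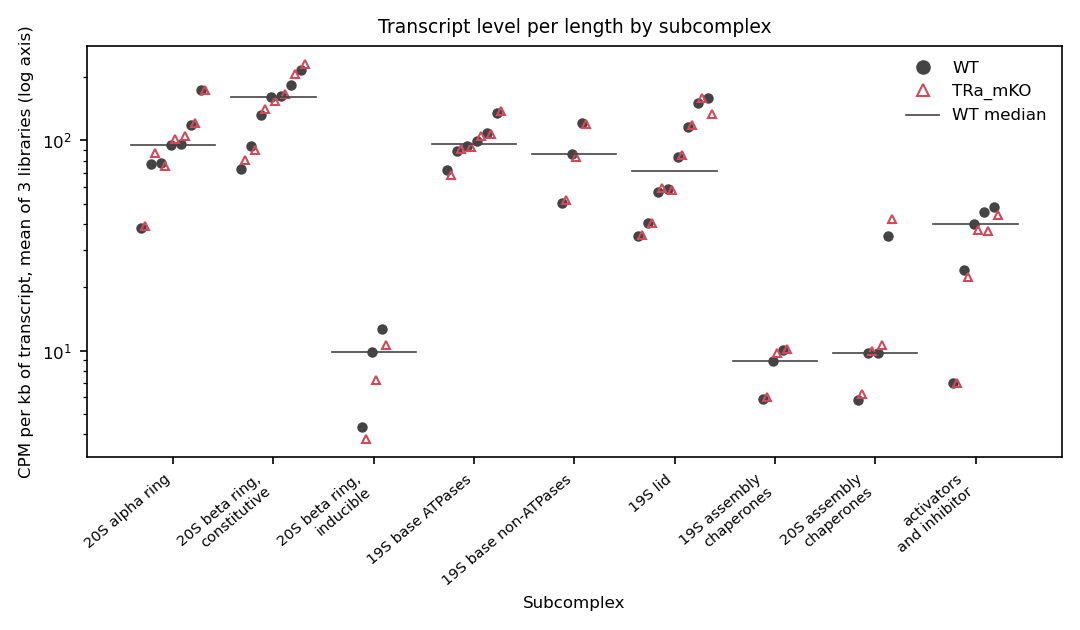
Level per length of each gene (vertical log axis, CPM per kb of transcript, mean of 3 libraries) by subcomplex, with WT as filled circles, TRa_mKO as open triangles and the WT median as a line. The standard barrel and cap sets have medians of 71.2 to 160 CPM per kb, above the medians of the inducible subunits and the chaperones at 8.96 to 9.85.

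The activators bind the barrel in place of the cap, and Psmf1 encodes an inhibitor of the barrel. All 5 of these genes had log2 fold changes below 0, as 6564 of all 13118 genes did, with a median of -0.12, and 0 passed. Psme1, Psme2, Psme3 and Psme4 kept that sign in every alternative, while Psmf1 did not. Psme4 (gene ID 103554), which encodes the activator PA200, had the highest mean count of the 46, with 2876 to 5071 counts per library. It stood at 248, 310 and 335 CPM over the WT replicates and at 256, 232 and 231 CPM over the TRa_mKO replicates. WT replicates 2 and 3 were the highest, and WT replicate 1 lay within the range of TRa_mKO, so the groups overlapped. The log2 fold change of -0.31 (SE 0.12, 95% interval -0.59 to -0.04) did not pass (adjusted p = 0.215). Without WT replicate 1 it was -0.44 (adjusted p = 0.0779), the smallest adjusted p of any of the 46 genes in any alternative, and without WT replicate 3 it was -0.22 (adjusted p = 0.421).

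Psme1 and Psme2 encode the ring of PA28 that interferon induces, and Psme3 its nuclear relative. Psme1 stood at 57.9, 55.6 and 47.0 CPM over the WT replicates and at 44.9, 49.6 and 52.0 CPM over the TRa_mKO replicates (log2 fold change -0.13, adjusted p = 0.553). Psme2 stood at 40.9, 42.7 and 31.95 CPM over the WT replicates and at 35.7, 35.8 and 36.1 CPM over the TRa_mKO replicates (log2 fold change -0.10, adjusted p = 0.703). Its counts were fractional, as were those of Psmf1, so both share reads with other features and are uncertain to that extent. Psme3 stood at 61.8, 63.6 and 68.6 CPM over the WT replicates and at 63.9, 58.7 and 56.0 CPM over the TRa_mKO replicates (log2 fold change -0.12, adjusted p = 0.522). Psmf1 was level, at 26.8 ± 1.69 and 26.8 ± 2.71 CPM (log2 fold change -0.01, adjusted p = 0.983). Per length, Psme1 was the highest of this set in WT (48.1 CPM per kb) and Psmf1 the lowest (7.05).

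Genes that work with the proteasome under other names gave a similar picture. The 23 tested partner genes are ubiquitin receptors, shuttles, chaperones and the p97 segregase, with Psmc3ip, a recombination factor, also on the list. Of these, 0 passed in either direction, beside 4.17% of all genes, and the median log2 fold change was 0.01. DESeq2 and limma-voom called 0. An unadjusted p under 0.05 (edgeR) was found for 1, beside 17.9% of all genes. The groups did not overlap for 2, both lower, beside 23.2% of all genes in either direction. Pomp, the maturation factor of the barrel, stood at 87.2, 91.5 and 71.6 CPM over the WT replicates and at 89.6, 93.9 and 93.1 CPM over the TRa_mKO replicates (log2 fold change 0.14, adjusted p = 0.512). Vcp, the p97 ATPase that extracts ubiquitinated proteins, was at 595 ± 73.6 and 598 ± 31.2 CPM (adjusted p = 0.985). Usp14, a deubiquitinase bound to the base, was at 91.9 ± 4.42 and 86.3 ± 10.7 CPM (adjusted p = 0.712, shared reads).

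Of 6 ubiquitin and ubiquitin-activating genes, 0 passed, beside 4.17% of all genes, with a median of -0.04 (0 by DESeq2 or limma-voom). An unadjusted p under 0.05 (edgeR) was found for 1 of the 6, beside 17.9% of all genes. Ubb, a polyubiquitin gene, was at 1325 ± 147 and 1276 ± 124 CPM (adjusted p = 0.884).

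NRF1, encoded by Nfe2l1, is the transcription factor that raises proteasome genes when the proteasome is inhibited. Nfe2l1 stood at 323, 313 and 345 CPM over the WT replicates and at 352, 326 and 325 CPM over the TRa_mKO replicates (log2 fold change 0.03, 95% interval -0.18 to 0.25, adjusted p = 0.909). The list of 11 tested genes around NRF1 also holds Nfe2l2, which encodes NRF2, with Keap1, Bach1 and Maf genes. It is thus not particular to NRF1. Of the 11, 0 passed by edgeR, beside 4.17% of all genes, and 0 by DESeq2 or limma-voom. Their median was 0.06, and 0 had an unadjusted p under 0.05 (edgeR), beside 17.9% of all genes. The groups did not overlap for 1, Keap1, which was higher, beside 23.2% of all genes in either direction.

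Genes of antigen presentation and interferon signalling, the setting in which the immunoproteasome is known, had 20 of 23 log2 fold changes below 0 and a median of -0.25. Of the 23, 1 fell and 0 rose, beside 4.17% of all genes called, and 5 had an unadjusted p under 0.05 (Jak2, B2m, H2-D1, H2-K1 and Gbp2), beside 17.9% of all genes. Jak2, a kinase of cytokine receptors (gene ID 16452), stood at 94.5, 132 and 112 CPM over the WT replicates and at 47.5, 46.1 and 46.3 CPM over the TRa_mKO replicates. It fell by 1.27 on the log2 scale (SE 0.12, adjusted p = 0.000459, edgeR), with all TRa_mKO libraries below all WT libraries. Limma-voom also called 1 gene lower, Jak2. DESeq2 called 3 genes lower, adding B2m and H2-D1 (adjusted p = 0.0261 and 0.0229, with shared reads for H2-D1). Without WT replicate 3 the edgeR test called Jak2 and Gbp2.

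Markers of other cell types were read beside the inducible subunits. For comparison, 4.17% of all genes were called by edgeR, 5.81% by DESeq2 and 3.87% by limma-voom. An unadjusted p under 0.05 (edgeR) was found for 17.9% of all genes. The 7 endothelial markers summed to 915 to 1110 CPM in WT and 657 to 911 CPM in TRa_mKO, with a median log2 fold change of -0.35, 6 of 7 below 0, and 0 calls by edgeR (5 at an unadjusted p under 0.05, with 1, Kdr, lower by DESeq2 and 0 by limma-voom). The 14 tested leukocyte markers summed to 196 to 252 CPM in WT and 150 to 240 CPM in TRa_mKO, with a median of -0.05 and 0 calls by edgeR (1 at an unadjusted p under 0.05, with 0 by DESeq2 and limma-voom). Cd3e, a T cell marker, had counts of 0 to 2 per library. The 6 Schwann cell and nerve markers were all below 0, with a median of -0.58, a wide range in WT (301.4 to 1238 CPM, against 475 to 654 CPM in TRa_mKO) and 0 calls by edgeR, DESeq2 or limma-voom (1 at an unadjusted p under 0.05). The 6 fibroblast markers had a median of 0.15, with 3 above and 3 below 0 and sums of 1313 to 1866 CPM in WT and 1391 to 2008 CPM in TRa_mKO. None of them passed by edgeR or limma-voom, while Col3a1 was called higher by DESeq2 and had the 1 unadjusted p under 0.05. The 4 tested adipocyte markers had a median of -0.03 and sums of 591 to 827 CPM in WT and 491 to 678 CPM in TRa_mKO. The 5 red blood cell markers had a median of 0.21, with sums of 458 to 1763 CPM in WT and 710 to 1621 CPM in TRa_mKO. Neither list had a call by any of the 3 tools or an unadjusted p under 0.05.

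Within TRa_mKO, replicate 1 was the lowest and replicate 3 the highest for Psmb8, for Psmb10 and for Psme1. Psmb9, the remaining inducible subunit, was highest in TRa_mKO replicate 2 (4.76, 5.65 and 5.05 CPM). The sums of the antigen presentation list and of all 6 marker lists other than skeletal muscle were also lowest in replicate 1 and highest in replicate 3. Within TRa_mKO this order was thus not particular to endothelial, leukocyte or antigen presentation genes. The skeletal muscle sum was highest in TRa_mKO replicate 1. Within WT, Psmb8, Psmb9 and Psmb10 were highest in replicate 2 and lowest in replicate 3. The antigen presentation sum (1562, 1651 and 1360 CPM) and the skeletal muscle sum had that WT order, while the other 6 marker sums did not. Psme1 was highest in WT replicate 1, as those 6 sums were apart from the fibroblast sum. Between the genotypes the endothelial, leukocyte, adipocyte and Schwann cell medians lay below 0, as that of the inducible subunits did, and the skeletal muscle, fibroblast and red blood cell medians lay above 0. The part of other cell types or of the muscle share in the values of Psmb8, Psmb10 and Psme1 was not tested.

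**Figure D5:**
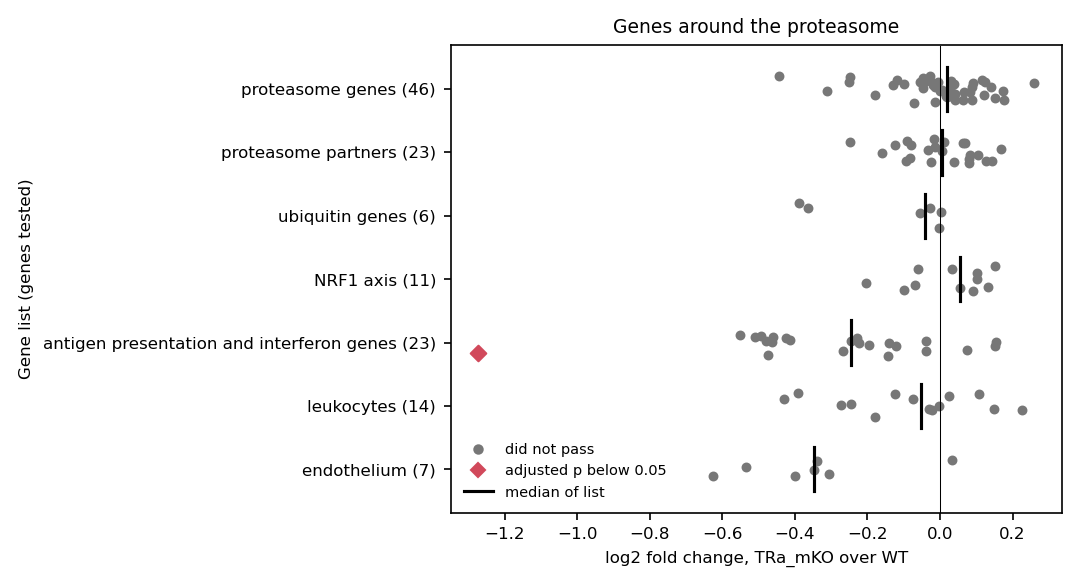
Log2 fold change (horizontal axis, TRa_mKO over WT) of each tested gene of the proteasome set and of 6 further lists (rows, with the number of genes tested), with the median of each list as a vertical line. Grey points did not pass, and the diamond is Jak2, the only gene shown that passed.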

How the data were processed

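Per the labels' protocols, libraries were poly(A)-selected and stranded by dUTP incorporation, and sequencing was paired-end on a BGISEQ-500. Tools named in the submitters' processing notes are featureCounts, Trimmomatic 0.39, FastQC 0.11.9 and MultiQC 1.12, with GRCm38.p6, GRCm39 and mm10 listed as builds. No source used here states the aligner, the annotation or the strand setting. What the authors deposited is a single unnormalized table of estimated counts by gene, with fractional values for 9.65% to 10.0% of the genes of a library. Values were rounded to whole numbers.

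Genes were filtered by filterByExpr (minimum count 10), scaled by TMM and compared between genotypes by the robust quasi-likelihood test of edgeR 4.0.16 (two-sided, R 4.3.3), over all 13118 genes, with Benjamini-Hochberg adjusted p below 0.05 as the threshold. On counts simulated for these genes the step found 48.4% of the genes that were changed 1.5-fold and 86.3% of those changed 2-fold, with 7.2% false calls. Levels between genes are CPM per kb of the longest principal GENCODE transcript.

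The members, lists and tests were chosen with earlier results of these data known. Named were the members with the highest and lowest fold changes, those whose groups did not overlap, the smallest p and the most and least abundant of each subcomplex, catalytic, inducible, activator and chaperone genes, and pathway genes that passed or were listed by name, of which 1 is not reported here. Tap1, B2m, H2-D1, H2-K1, Gbp2, Kdr, Col3a1 and Myh2 were named after their values were seen. Alternatives were other normalizations and filters, DESeq2 1.42.0, limma-voom (limma 3.58.1), the 10 most abundant genes or genes with shared reads left out, a replicate block, and libraries left out. Nothing beyond the count of mice says how the libraries of a genotype relate, so p-values measure the spread between these libraries.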

Additional observations from a re-analysis of the deposited data

How the results depend on the processing

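None of the 46 proteasome genes passed in any of the 16 alternatives, in 734 values in all, and the smallest adjusted p among them was 0.0779 (Psme4 without WT replicate 1). Of the 46, 21 kept the sign of their log2 fold change in all alternatives run, and 25 changed it in at least 1, none of them with a reported value over 0.12 in size. The median of all genes moved from 0.00 to -0.05 with library size only, and the median of the activators and inhibitor then moved from -0.12 to -0.17; with 1 library left out it ranged from -0.22 to -0.0788, and that of the base chaperones from 0.0089 to 0.13. Over all genes, the test called 547 (331 higher, 216 lower); library size only gave 213 higher and 255 lower, and the replicate block gave 357 (216 higher, 141 lower). Leaving out WT replicate 1 and TRa_mKO replicate 3, the libraries highest in haemoglobin, gave 267 calls (177 higher, 90 lower). The median log2 fold change was then -0.01 for the 46 genes, against 0.02, and -0.33 for the inducible subunits, against -0.25. With 1 library left out, calls ranged from 209 to 595 (135 to 331 higher, 74 to 264 lower), with the lowest counts without TRa_mKO replicate 2. In the antigen presentation list, DESeq2 called 3 genes lower, and 1 to 2 were lower with 1 library left out. The cause of these shifts was not tested. Same-numbered libraries did not deviate together over all genes (correlations of -0.18, 0 and -0.01), so the replicate number was read as a name, and with the replicate block 0 proteasome genes were called. Transcript length was also taken as the longest, a choice made after seeing the data. The span of levels in WT then moved from 2.97-fold to 3.32-fold for the standard beta ring. It moved from 1.88-fold to 1.69-fold for the ATPase genes and from 6.06-fold to 4.94-fold for Psmg1 to Psmg4. The 4.52-fold span of the alpha ring could not move, because Psma6 and Psma2 each have the same length under both choices. This alternative therefore does not show how far that span depends on the annotated lengths. For the scarcest genes, Psmb9 and Psmg4, the 95% interval reached beyond 1.5-fold.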
